A study of Mus musculus with 32 samples.

Results

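The 10 genes described here make melanin or build and carry the melanosome, the pigment granule: Tyr, Tyrp1, Dct, Pmel, Mlana, Mitf, Oca2, Slc45a2, Gpr143 and Rab27a. They were listed by name as members of this pathway, with earlier results of these data known. All 10 are among the 24421 gene symbols of the count table. The study used RNA sequencing to compare an albino mouse strain that has nystagmus (involuntary eye movement) with pigmented mice. The groups are C57BL/6 and the albino B6(CG)Tyr(c-2J)/J strain, which carries the c-2J allele of tyrosinase on a C57BL/6 background. Each genotype was sampled in extraocular muscle (EOM, which moves the eye), tibialis anterior (TA, a leg muscle), oculomotor neurons (CN3) and abducens neurons (CN6), with 4 libraries per tissue and 32 in all. The labels name no treatment, age or sex and do not say whether replicates came from separate animals, so the p-values measure only the spread between these samples, which may be technical. No promoter, Cre driver or transgene is named.

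The tissue labels of 8 of the 16 albino libraries went against their genes, and this had to be settled before any comparison. The albino groups used here follow marker genes: the EOM group holds the libraries labelled albino EOM 3, EOM 4, CN3 3 and CN3 4, and the TA group those labelled albino TA 3, TA 4, CN6 3 and CN6 4. The CN3 group holds those labelled albino CN3 1, CN3 2, EOM 1 and EOM 2, and the CN6 group those labelled albino CN6 1, CN6 2, TA 1 and TA 2. Every C57BL/6 library stands as labelled. Myh13, the myosin of extraocular muscle, was at 3742 to 4459 CPM (counts per 1000000 counted reads of the library) in the albino EOM group, at 19.5 to 94.0 in the albino TA group and at no more than 0.608 in any brain library. Summed over 4 hindbrain Hox genes, the C57BL/6 CN6 libraries held 39.3 to 52.2 CPM and the CN3 libraries of both genotypes at most 0.762. The albino CN6 libraries ranged from 4.30, in the library labelled albino CN6 1, to 35.7, all below the C57BL/6 CN6 range. The CN6 genotype comparison thus sets samples with different levels of these hindbrain genes side by side. The cholinergic motor neuron markers were lower in C57BL/6 CN3 (summed level 1.62 to 4.45 CPM) than in albino CN3 (37.5 to 87.8) and either CN6 group (51.5 to 135), so the CN3 genotype comparison sets pieces of brainstem with different motor neuron content side by side. The genotype tests were also run on the 24 libraries whose labels match their markers, with 4 C57BL/6 and 2 albino libraries per tissue, and those values stand beside the main results. The library labelled albino CN6 1, lowest in the Hox genes, is 1 of the 2 albino libraries of that set in CN6.

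Melanin is made inside melanosomes by tyrosinase (Tyr), which catalyses the first oxidation of tyrosine, and by its relatives Tyrp1 and Dct, which act on later intermediates. Pmel forms the fibrils on which melanin is laid down, Mlana takes part in the maturation of Pmel, and Oca2, Slc45a2 and Gpr143 are membrane proteins that set the ion content, pH and size of the granule. Mitf is the transcription factor that drives these genes in melanocytes, and it has other promoters and other roles in muscle and bone cells. Rab27a is a small GTPase that, with melanophilin and myosin Va, holds melanosomes at the cell edge, and it also serves granule secretion in many cells that hold no pigment. The c-2J allele is a substitution in the coding sequence of Tyr, so the level of its transcript does not check the genotype. A separate gene does separate the strains: Nnt, which carries a deletion in one C57BL/6 substrain, was at 142 to 173 CPM in albino and 460 to 498 in C57BL/6 EOM, and the genotypes did not overlap at this gene in any of the 4 tissues.

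The promoters of the 3 enzyme genes are shown because Mitf is known to act on them and because Tyrp1 was called between the strains in eye muscle and Dct was not. RefSeq promoters on GRCm38.p6, from 250 bases before to 50 after the transcript start, were matched for 6 of the 10 genes and gave 9 promoters. Each is printed 5′ to 3′ in the direction of the gene, and capitals mark CATGTG or its reverse complement CACATG.
Tyr, chr7:87493463-87493762, minus strand: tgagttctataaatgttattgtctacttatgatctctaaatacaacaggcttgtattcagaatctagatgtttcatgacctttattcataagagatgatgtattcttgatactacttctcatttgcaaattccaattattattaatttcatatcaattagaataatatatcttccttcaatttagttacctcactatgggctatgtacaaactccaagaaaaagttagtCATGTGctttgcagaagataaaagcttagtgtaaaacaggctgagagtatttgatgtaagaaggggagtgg
Tyrp1, chr4:80833963-80834262, plus strand: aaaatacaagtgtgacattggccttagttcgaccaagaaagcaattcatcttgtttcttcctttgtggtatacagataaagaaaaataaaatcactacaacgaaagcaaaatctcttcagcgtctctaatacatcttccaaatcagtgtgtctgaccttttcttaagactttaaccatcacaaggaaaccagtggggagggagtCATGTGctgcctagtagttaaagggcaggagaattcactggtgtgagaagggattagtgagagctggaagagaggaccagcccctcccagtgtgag
Dct, chr14:118052197-118052496, minus strand: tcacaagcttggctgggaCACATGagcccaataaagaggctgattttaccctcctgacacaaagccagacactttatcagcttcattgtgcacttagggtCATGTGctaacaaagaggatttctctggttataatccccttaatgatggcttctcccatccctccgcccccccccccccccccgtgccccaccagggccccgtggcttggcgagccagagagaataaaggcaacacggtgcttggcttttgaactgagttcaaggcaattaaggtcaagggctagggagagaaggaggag
CATGTG is the core of the M-box, the element that Mitf and its relatives are known to bind. On either strand it was found in 4 of the 9 promoters and in 14.155% of 32851 promoters of mouse genes. The first base of the match, counted back from the base just before the start, lay at -21 in Tyr, at -46 in Tyrp1, at -232 and -150 in Dct and at -186 in Oca2. The longer form TCATGTG, which contains it, was found on either strand in the Tyr, Tyrp1 and Dct promoters and in 3.772% of all promoters. CACGTG, the E-box that many basic helix-loop-helix factors can bind, was found only in the second of 2 Rab27a promoters, at -246, and in 7.15% of all promoters. These are matches of letters, not measured binding.

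In pigmented mice the melanocyte genes were found in EOM and hardly at all in TA. Dct, which converts dopachrome, was at 20.9, 13.8, 12.7 and 16.3 CPM in the 4 C57BL/6 EOM libraries, and 2 counts were found in the 4 TA libraries together. The EOM level was 821 times the TA level, with a 95% counting interval of 227 to 6786. Dct in EOM also stood above the brain, at 27.7 times the CN3 level (22.3 to 35.0) and 20.4 times the CN6 level (16.8 to 24.8). The ratios are of CPM, without the scaling between libraries used in the fits below. Their intervals and the detection limits given here cover counting error only. In whole tissue, fewer cells of a type and less RNA per cell cannot be told apart.

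The other 6 melanocyte genes followed the same order between the muscles at lower levels. Tyrp1 was at 5.52, 3.88, 3.87 and 5.60 CPM in C57BL/6 EOM against 2 counts in all of C57BL/6 TA, a ratio of 243 (66.9 to 2015). Pmel was at 6.42, 3.88, 4.48 and 5.96 CPM in EOM against 4 counts in TA, a ratio of 134 (52.1 to 495). Pmel shares 105 exon bases with Dgka and 34 with Cdk2, both on the other strand, and whether counting used strand is not given in the sources used here, so part of its low counts in other tissues cannot be assigned. Tyr, Mlana, Oca2 and Slc45a2 had no count in the 4 C57BL/6 TA libraries, which allows up to 0.0294 CPM over the group. Against that limit of 3 counts, C57BL/6 EOM was 16.3-fold higher for Tyr, 20.6-fold for Mlana, 9.31-fold for Oca2 and 13.2-fold for Slc45a2. These figures leave out the counting error of EOM, so they are not lower bounds. They are also too high if both mates of a pair were counted. Against the brain these 6 genes were less alike. Slc45a2 in C57BL/6 EOM was 1.07 times its CN3 level (0.676 to 1.68) and 2.37 times its CN6 level. In albino mice it was 0.682 times its CN3 level (0.402 to 1.13). In C57BL/6 EOM Pmel was 3.08 times its CN3 level and 5.15 times its CN6 level, and Oca2 was 5.01 and 2.36 times. Tyr, Tyrp1 and Mlana stood further above both regions, and Mlana had no count in C57BL/6 CN6. Gpr143, the receptor of the melanosome membrane, was at 0.391 CPM or less in every library of the study and at 0 in all 8 TA libraries.

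Per kilobase of exon, which allows genes to be set against each other, the order in C57BL/6 EOM ran from Rab27a (5.80 CPM per kb) through Mitf (3.85), Dct (2.70), Pmel (2.26) and Tyrp1 (1.67) to Mlana (0.581). Slc45a2 (0.127), Oca2 (0.0687), Tyr (0.0663) and Gpr143 (0.032) closed the order. Tyrosinase itself, the gene altered in the albino strain, was thus among the lowest of the 10, with 42 counts in the 4 C57BL/6 EOM libraries together.

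**Figure D1:**
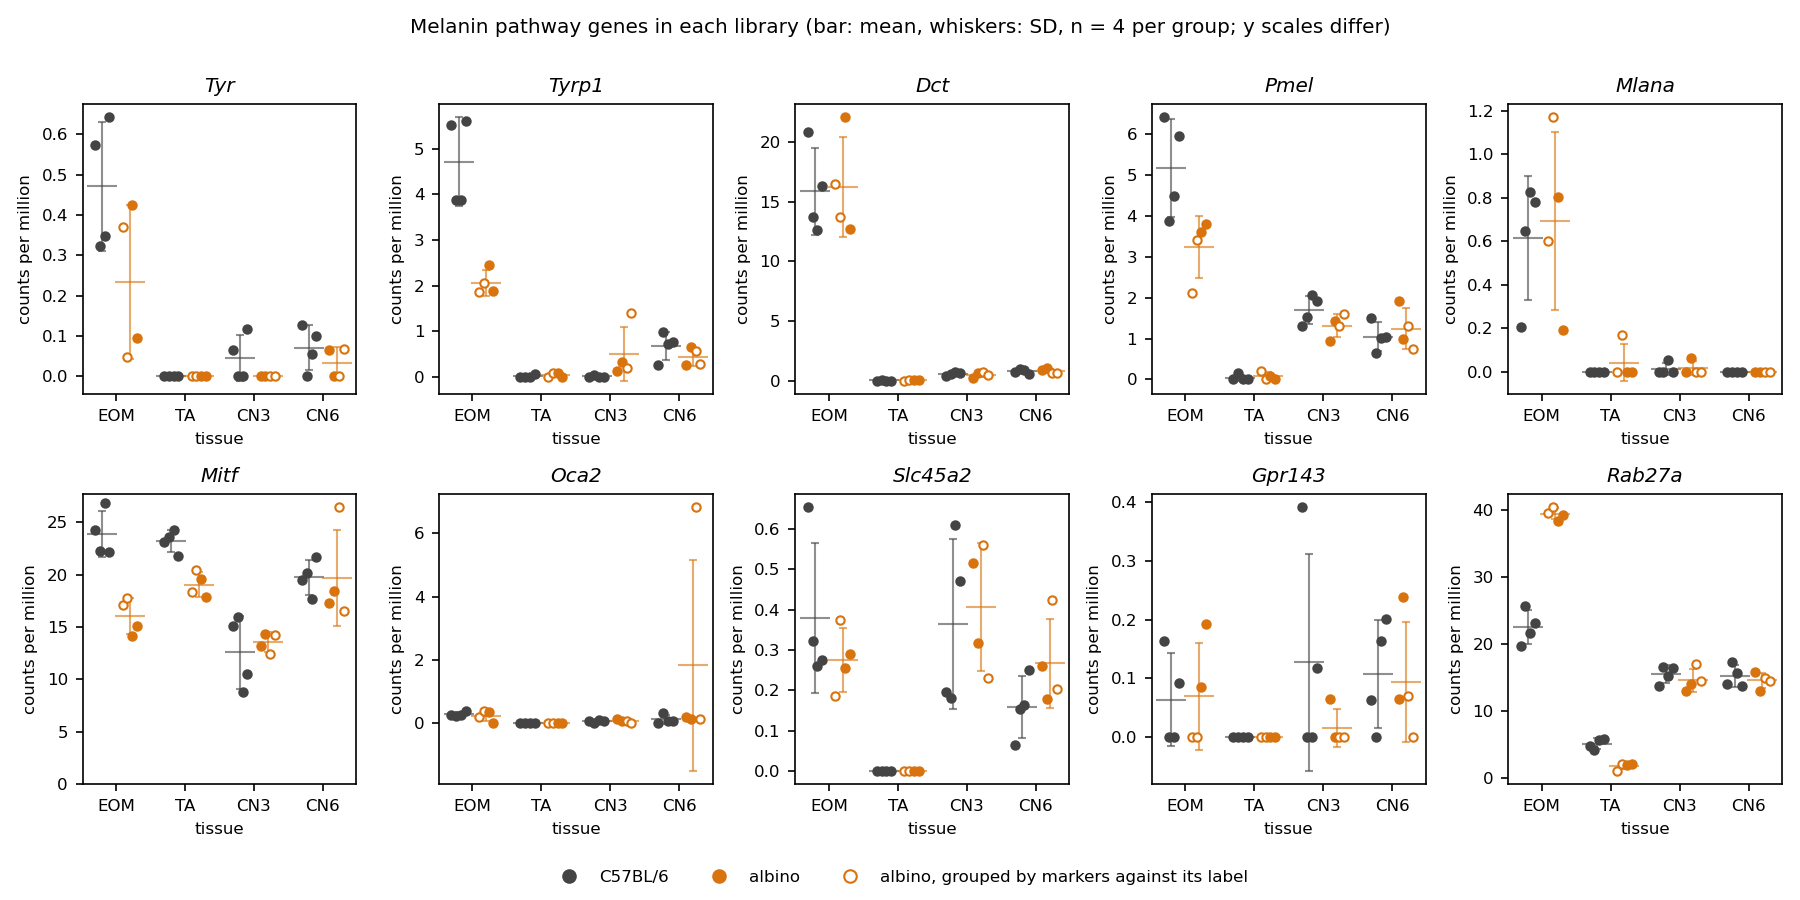
Level of each of the 10 genes in each library, in CPM on the vertical axis, by tissue on the horizontal axis. Grey points are C57BL/6 and orange points albino, open points are libraries grouped against their label, and bars and whiskers give the mean and SD of 4 libraries. Dct, Tyrp1, Pmel and Mlana stood in EOM in both strains, Mitf and Rab27a were found in every tissue, and 1 albino CN6 library held Oca2 at 6.83 CPM.

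Mitf and Rab27a did not share this pattern, as both were counted in every library. Mitf was at 24.3, 22.2, 26.8 and 22.1 CPM in C57BL/6 EOM and at 23.1, 23.6, 24.3 and 21.8 in C57BL/6 TA, and these ranges overlapped. In C57BL/6 CN6 it was at 19.4, 20.1, 17.7 and 21.7 CPM, just under both muscles, and in CN3 it spread from 8.82 to 15.9. Rab27a was at 22.5 ± 2.48 CPM (SD, n = 4) in C57BL/6 EOM, 15.4 ± 1.33 in CN3, 15.2 ± 1.64 in CN6 and 5.07 ± 0.779 in TA. In that order CN3 and CN6 did not differ beyond their spread, and the other neighbours did not overlap.

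The fit over all genes in the 16 C57BL/6 libraries (edgeR's quasi-likelihood test, Benjamini-Hochberg adjusted over 16670 genes, called at an adjusted p under 0.05) called 74.1% of genes between EOM and TA, 41.3% higher in EOM and 32.8% lower. All 5 of the 10 genes that passed the filter on low counts were called, and 5 did not pass it. Rab27a was higher in EOM by 1.42 ± 0.13 (log2 scale, SE, adjusted p = 1.62e-08). Tyrp1, Dct and Pmel were higher with adjusted p-values of 6.17e-08, 2.42e-11 and 3.45e-08. With its scaling, the fit put the folds at 2.67 for Rab27a, 131 for Tyrp1, 438 for Dct and 75.7 for Pmel. Each is smaller than the ratio of CPM. Mitf was called lower in EOM, at -0.69 ± 0.15 (adjusted p = 0.000363), although its CPM values overlapped. That value rests on the scaling between the muscles, where the 6 muscle genes checked took 104164 to 119423 CPM in TA and 35317 to 43083 in EOM. It was also negative under the other scalings tried, and the median gene differed by 0.16 between these tissues. Without the filter, where 12587 of 21178 genes were called, 9 of the 10 genes were called, all but Gpr143.

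Between the 2 brain regions of C57BL/6 mice 21.5% of genes were called (9.49% higher in CN3 and 12% lower), and with them 2 of the 5 genes tested. Mitf was lower in CN3 than in CN6, by -0.68 ± 0.15 (adjusted p = 0.00289). Tyrp1 was found in every C57BL/6 CN6 library, at 0.256, 0.994, 0.712 and 0.753 CPM, but CN3 held 2 counts of it in 4 libraries. The adjusted p for Tyrp1 was 7.07e-05. Dct, Pmel and Rab27a were not called between the regions. The motor neuron markers also set these C57BL/6 samples apart (1.62 to 4.45 CPM in CN3, 51.5 to 123 in CN6). Their part in the Tyrp1 and Mitf calls was not tested. In albino mice Tyrp1 overlapped between the regions (0.129 to 1.39 CPM in CN3, 0.261 to 0.658 in CN6). Mitf did not overlap there (12.4 to 14.4 CPM in CN3, 16.5 to 26.5 in CN6). In the comparison of both muscles with both brain regions, where 88.8% of genes were called, Mitf was higher in muscle by 1.27 ± 0.10 (adjusted p = 1.7e-09). Its mean CPM was 23.9 in EOM and 23.2 in TA, against 12.6 in CN3 and 19.7 in CN6. The size of that value therefore also rests on the scaling between muscle and brain. Tyrp1 was also called there (2.20 ± 0.90, adjusted p = 0.0298), but without the C57BL/6 TA 4 library, which held its only TA counts, the value was 0.57 with an adjusted p of 0.779. Rab27a was not called (0.17 ± 0.09, adjusted p = 0.0667), although it passed without C57BL/6 EOM 1, TA 2 or CN6 2, with the lowest adjusted p at 0.0256.

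The first genotype question was whether the pigment genes stood at other levels in the eye muscles of the albino strain. The strains also differed at Nnt, as given above. Effects of the c-2J allele and of other differences between the strains cannot be told apart here. In EOM Rab27a was higher in the albino strain, while Tyrp1, Mitf and Pmel were lower and Dct and Mlana were not called. The fit called 38.9% of 15019 genes between the strains in EOM and 4 of the 6 tested genes, too few for their share to be read against that of the whole. Of all genes tested, 17.8% were called higher and 21.2% lower, and 32% were called in the libraries with matching labels, where 3 of 7 tested genes were.

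Of the pigment enzymes, Tyrp1 took 2.46, 1.88, 1.85 and 2.06 CPM in albino EOM (in order, the libraries labelled albino EOM 3, EOM 4, CN3 3 and CN3 4). All 4 lay below the lowest C57BL/6 EOM library, at 3.87 CPM. The difference was -1.20 ± 0.22 on the log2 scale, 2.29-fold lower in the albino strain (adjusted p = 0.00206), and -1.11 with an adjusted p of 0.0199 in the libraries with matching labels. It lost its call when all 32 libraries shared 1 estimate of the spread (adjusted p = 0.0653). The call was also lost in the libraries with matching labels once a block for replicate number was added (-1.09, adjusted p = 0.102). Dct in the same libraries was at 22.1, 12.7, 16.5 and 13.7 CPM, and the 2 strains overlapped over nearly their whole range. Its difference was 0.03 ± 0.21 (adjusted p = 0.924), with an interval of -0.37 to 0.43, and 0.14 with an adjusted p of 0.72 in the libraries with matching labels. Tyrp1 was therefore called and Dct was not, and whether their responses differ from each other was not tested.

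Tyr was counted in all 8 EOM libraries but too thinly for the filter. It was at 0.573, 0.324, 0.348 and 0.642 CPM in C57BL/6 and at 0.424, 0.0963, 0.370 and 0.0468 in the albino libraries in the order above, and the strains overlapped. Without the filter its difference was -1.003 ± 0.693 (adjusted p = 0.335), so no change of Tyr was detectable at a depth of 42 and 21 counts per group. The C57BL/6 and albino EOM means were 0.472 ± 0.160 and 0.234 ± 0.190 CPM (SD, n = 4).

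Of the granule proteins, Pmel was at 3.60, 3.80, 2.13 and 3.42 CPM in albino EOM, all below the lowest C57BL/6 value of 3.88 CPM, though by a small margin. The fit gave -0.69 ± 0.24 (adjusted p = 0.0449). That call is fragile: in the libraries with matching labels the value was -0.48 with an adjusted p of 0.22, and it missed the threshold without any 1 of C57BL/6 EOM 1, C57BL/6 EOM 4 or the libraries labelled albino EOM 3, CN3 3 and CN3 4, at adjusted p-values up to 0.121. Mlana was at 0.204, 0.647, 0.827 and 0.780 CPM in C57BL/6 EOM and at 0.805, 0.193, 0.601 and 1.17 in albino EOM. These ranges overlapped, and the interval of the difference ran from -0.94 to 1.27. Oca2, Slc45a2 and Gpr143 had 6 to 34 counts per EOM group and overlapped between the strains, with adjusted p-values of 0.814, 0.569 and 0.999 without the filter.

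Mitf was at 14.1, 15.1, 17.1 and 17.8 CPM in albino EOM, and each of these lay below the lowest C57BL/6 EOM library, at 22.1 CPM. The difference was -0.57 ± 0.10, 1.49-fold lower (adjusted p = 0.00138), and -0.69 in the libraries with matching labels (adjusted p = 0.0029). Rab27a moved the other way in the same libraries. It was at 19.7, 25.6, 21.6 and 23.0 CPM in C57BL/6 EOM and at 38.4, 39.2, 39.6 and 40.4 in the albino libraries, whose range did not reach that of the C57BL/6 libraries. The difference was 0.81 ± 0.09, 1.75-fold higher (adjusted p = 0.000237), and 0.80 (adjusted p = 0.0017) in the libraries with matching labels. Rab27a shares 149 exon bases with the pseudogene Gm27186, so a few of its reads could be ambiguous.

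Markers of the cells that an eye muscle sample can hold were set beside these values. Summed over the 7 melanocyte genes (Tyr, Tyrp1, Dct, Pmel, Mlana, Oca2 and Slc45a2), C57BL/6 EOM libraries held 22.7 to 34.5 CPM and albino EOM libraries 19.0 to 30.0. The retinal pigment epithelium list summed to 4.68 to 8.27 CPM in C57BL/6 and 10.1 to 19.3 in albino EOM, with Rpe65, the gene that defines that cell, at a median of 0.0409 and 0.0848 CPM, and 2 of the 5 markers tested were called higher. The photoreceptor list summed to 18.3 to 24.3 CPM in C57BL/6 and 24.8 to 34.9 in albino EOM, with 1 of 2 tested markers called higher. Neither sum overlapped between the strains in EOM. The photoreceptor list also summed to 12.5 to 14.7 CPM in C57BL/6 TA, 10.6 to 18.2 in albino TA and 11.6 to 24.5 in the brain libraries. The retinal pigment epithelium list summed to 1.39 to 3.48 CPM in TA and to at least 25.7 in every brain library. Neither sum is therefore specific to cells of the retina. Keratinocyte markers ranged from 127 to 936 CPM in C57BL/6 and from 34.7 to 1186 in albino EOM, and 0 of the 8 were called higher and 1 lower. The 8 Schwann cell markers summed to 706 to 833 CPM in C57BL/6 and 640 to 706 in albino EOM, with 2 called lower. The part of these cells in the differences above was not tested.

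**Figure D2:**
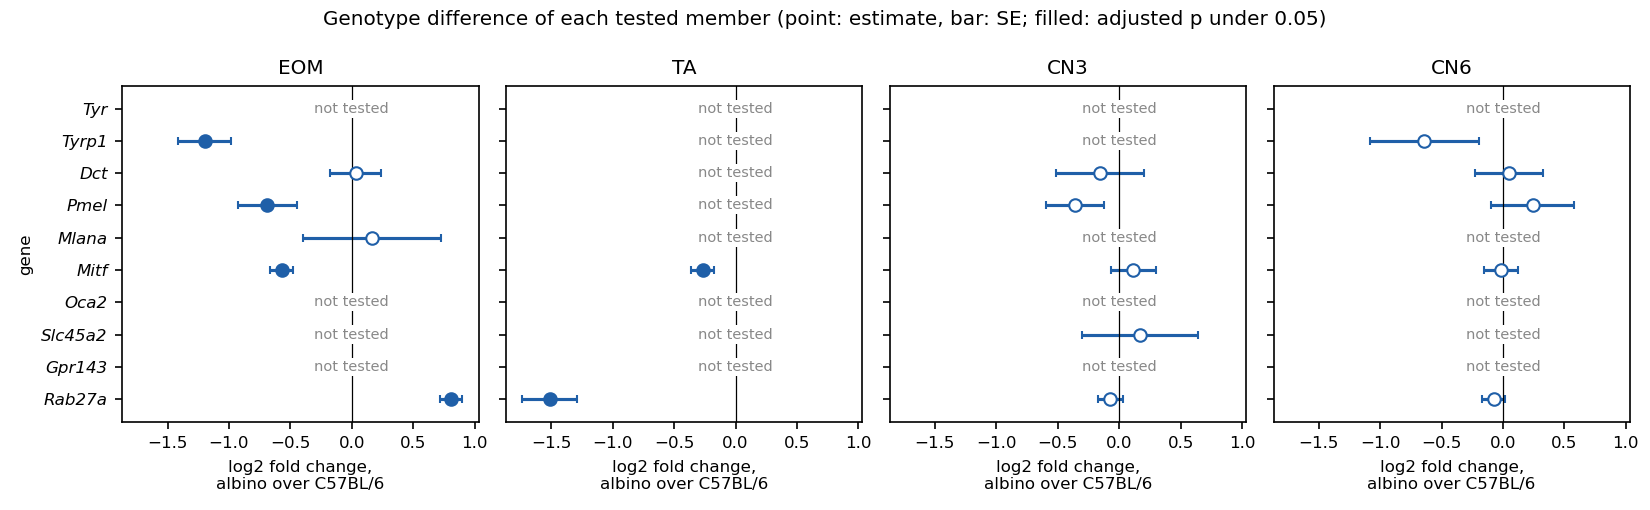
Difference between albino and C57BL/6 libraries for each tested gene in each tissue, on the log2 scale, with bars of 1 SE; filled points had an adjusted p under 0.05. Rab27a lay at 0.81 in EOM and at -1.51 in TA, and no gene passed in CN3 or CN6.

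In TA, the limb muscle, 33.7% of 12956 genes were called between the strains and 16.6% were higher and 17% lower in the albino strain (31.1% called in the libraries with matching labels). Only Mitf and Rab27a passed the filter, and both were lower in the albino strain. Rab27a was at 4.72, 4.14, 5.63 and 5.79 CPM in C57BL/6 TA, and at 1.89, 2.06, 1.00 and 1.97 in the libraries labelled albino TA 3, TA 4, CN6 3 and CN6 4. No albino library reached the C57BL/6 range. The difference was -1.51 ± 0.22, 2.86-fold lower (adjusted p = 0.000276), and -1.39 in the libraries with matching labels (adjusted p = 0.000517). It rests on 19 to 51 counts per albino library. Mitf was at 19.6, 17.8, 18.3 and 20.4 CPM in albino TA against 21.8 to 24.3 in C57BL/6 TA, again with no overlap. Its difference of -0.27 ± 0.09 (adjusted p = 0.0369; matching labels -0.34, adjusted p = 0.0164) was lost without any 1 of 6 of the 8 libraries, the exceptions being C57BL/6 TA 4 and the library labelled albino CN6 4. It was also lost with upper quartile scaling (adjusted p = 0.0856). The other 8 genes had at most 6 counts in the albino TA group, and Tyr, Oca2, Slc45a2 and Gpr143 had none.

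The response of Rab27a differed between the muscles. The difference between the EOM and TA responses was 2.37 ± 0.23 on the log2 scale (adjusted p = 1.34e-05; 2.19 and 8.07e-05 in the libraries with matching labels), in a test that called 13% of 15267 genes, 5.54% higher and 7.48% lower, and 7.73% in the libraries with matching labels. Leaving out each of the 16 muscle libraries in turn gave 2.19 to 2.47, all called. As levels in CPM, without the scaling used in the fits, EOM held 4.39 times the Rab27a of TA in C57BL/6 mice (3.99 to 4.85). In albino mice it held 22.1 times (19.0 to 26.0). The scaled fit over the C57BL/6 libraries put the ratio of that strain at 2.67. Tyrp1, Dct, Pmel and Mlana also entered this test and were not called, but with at most 6 counts per TA group their SEs were 1.08 to 2.01, so their response could not be compared. For Mitf the difference in response was -0.26 ± 0.13 (adjusted p = 0.204), so the larger fall in EOM was not shown to differ from that in TA.

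Other cell types also moved with the strain in TA. All 8 macrophage markers were called higher in albino TA, with a summed level of 143 to 179 CPM against 35.7 to 45.1 in C57BL/6, and 4 of the 5 mast cell markers tested were higher (15.8 to 20.8 CPM against 3.33 to 7.25). In EOM the macrophage sum was 643 to 774 CPM in albino and 517 to 645 in C57BL/6 libraries, and none of 8 mast cell markers was called. The part of these cells in the TA values of Rab27a and Mitf was not tested. Arntl, a gene of the circadian clock, was at 48.1 to 61.7 CPM in albino and 3.79 to 6.90 in C57BL/6 EOM and at 37.2 to 46.8 and 6.94 to 8.66 in TA, while the strains overlapped in the brain regions. The labels give no time of collection, so time of day and strain cannot be told apart in the muscle results.

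In the main fits the brain regions gave no call. In CN3, where 0.283% of 15880 genes were called, 0 of 5 tested genes were called by edgeR, DESeq2 or limma, and 0 had an unadjusted p under 0.05. In CN6, where 0.12% of 15879 genes were called, the counts were the same: 0 of 5 by any of the 3 tools, and 0 at an unadjusted p under 0.05. In the libraries with matching labels too, 0 of 5 were called in either region. Rab27a was at 13.7 to 16.5 CPM in C57BL/6 and 12.9 to 17.0 in albino CN3, and at 13.7 to 17.2 and 13.0 to 15.7 in CN6. The intervals of its difference, -0.27 to 0.13 in CN3 and -0.26 to 0.11 in CN6, did not reach the changes seen in either muscle. In the libraries with matching labels its difference was -0.19 in CN3 and -0.09 in CN6, and that of Mitf was 0.14 and -0.15. Mitf was at 12.4 to 14.4 CPM in albino CN3, inside the C57BL/6 range, and its interval was -0.24 to 0.47. In CN6 the interval was -0.29 to 0.26, with the library labelled albino TA 1 at 26.5 CPM and the other 3 albino libraries at 16.5 to 18.4.

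Dct and Pmel were low in the brain and also overlapped between the strains. Dct lay between 0.258 and 1.05 CPM in all 16 brain libraries, and Pmel between 0.637 and 2.07. Their intervals, from -0.86 to 0.55 for Dct and -0.82 to 0.11 for Pmel in CN3, leave room for changes as large as those of EOM. Tyrp1 in CN3 was too low for the filter, yet its groups did not overlap: C57BL/6 CN3 held 0, 0.0452, 0 and 0 CPM, and the libraries labelled albino CN3 1, CN3 2, EOM 1 and EOM 2 held 0.129, 0.318, 0.187 and 1.39. Summed, these are 2 and 68 counts, and 48 of the 68 came from the library labelled albino EOM 2. Without the filter the adjusted p was 0.114. A test of whether the Tyrp1 response differed between CN3 and CN6 did not pass (5.56 ± 1.25, adjusted p = 0.303, with 0 of 6 genes and 0.0306% of 16342 called, and 1 of 6 at an unadjusted p under 0.05), but DESeq2 called it (5.90, adjusted p = 0.0225), as did edgeR with all 32 libraries in 1 fit (5.44, adjusted p = 0.0413). The motor neuron markers, far higher in albino CN3 as given above, moved with this gene, and their part in it was not tested.

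Oca2, a melanosome membrane protein altered in a common form of human albinism, had 1 high library. It was at 6.83 CPM (193 counts) in the library labelled albino TA 1, grouped as CN6, and at 0.119 to 0.196 CPM in the other 3 albino CN6 libraries. No other brain library exceeded 0.306 CPM. In that library Ttr, a defining gene of choroid plexus, was at 7700 CPM, against 1.39 to 174 in the other 15 brain libraries, and Kl was at 304 CPM against 2.65 to 7.04. All 8 choroid plexus markers, a list chosen after this library was seen, were highest there, with a summed level of 8373 CPM against 16.5 to 198. Mitf was also highest there among the brain libraries, while Rab27a, at 14.8 CPM, lay within its group.

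**Figure D3:**
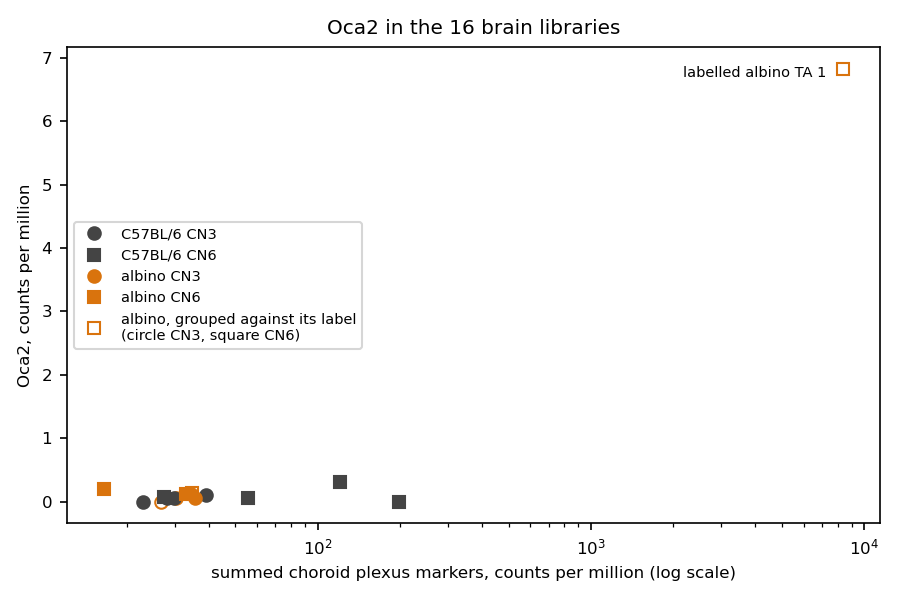
Oca2 level in CPM against the summed level of 8 choroid plexus markers (log axis, CPM) in the 16 brain libraries. The library labelled albino TA 1 lies alone at 6.83 and 8373, and the others lie at or below 0.306 and 198.

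The wider pathway was read through 4 gene lists around the 10 genes. Each count of called genes is set beside the share called over all genes in the same test, and nothing is read from a list as a whole. Every genotype call named below from these lists was also made in the libraries with matching labels, except those of Mgrn1 and Rabggta. Of the Mitf family and the regulators upstream of it, 13 of 15 could be tested in EOM. In the albino strain 0 were higher (17.8% of all genes) and 6 lower (21.2%), with a median of -0.35 against 0.01 over all genes. In the libraries with matching labels 1 was higher and 6 lower of 13. Kitl, the ligand of the Kit receptor on which melanocytes and mast cells depend, was at 47.1 CPM in albino and 100.7 in C57BL/6 EOM (-1.10 ± 0.08, adjusted p = 3.54e-05). Creb1, which carries the cAMP signal to the Mitf promoter, was at 25.3 and 49.6 CPM (adjusted p = 0.000113), and Ednrb, the endothelin receptor of melanoblasts, at 22.1 and 39.9 CPM (adjusted p = 0.000704). In TA, 1 gene of this list was higher (16.6% of all genes) and 3 were lower (17%) of 12 tested, with a median of -0.24 against 0.02 over all genes, and 0 and 3 in the libraries with matching labels. Kitl again was lower, at 27.3 against 59.1 CPM (-1.10 ± 0.09, adjusted p = 4.67e-06), with Creb1 (-0.61, adjusted p = 0.00069) and Ctnnb1 (-0.24, adjusted p = 0.00669). In the test of the difference between muscles, 1 gene was higher and 2 lower of 14 (13% of all genes called), and Zeb2, a repressor active in melanocytes, was at -1.07 ± 0.18 (adjusted p = 0.00125).

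Of the other proteins of the melanosome, 2 were higher and 2 lower of 11 tested in EOM (38.9% of all genes called), and the counts were the same in the libraries with matching labels. Cd63, a tetraspanin of melanosomes and lysosomes, was at 179 CPM in albino and 129 in C57BL/6 EOM (adjusted p = 0.000823), and Atp7a, the copper pump that loads tyrosinase, was at 15.4 and 27.5 CPM (adjusted p = 0.000722). Atrn, the attractin receptor of the agouti pathway, was at 44.9 and 67.5 CPM (adjusted p = 0.000546). In TA 3 were higher and 0 lower of 9 (33.7% of all genes called; 3 and 1 in the libraries with matching labels), led by Gpnmb, a Pmel relative that macrophages also make, at 6.17 CPM in albino and 1.43 in C57BL/6 TA (2.13 ± 0.26, adjusted p = 9.34e-05). Cd63 (0.30, adjusted p = 0.00743) and Mgrn1 (0.26, adjusted p = 0.0136) were the others, and Mgrn1 had an adjusted p of 0.0532 in the libraries with matching labels. The Gpnmb response differed between the muscles (-1.94 ± 0.31, adjusted p = 0.000863). The macrophage sums given above moved with Gpnmb in TA, and their part in it was not tested.

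Among the 27 genes that sort cargo to the melanosome and to other lysosome-related organelles, 5 were higher and 8 lower in EOM (38.9% of all genes called), and 3 higher and 8 lower of 26 in TA (33.7%). These counts were 3 and 6 in EOM and 3 and 7 in TA in the libraries with matching labels. Vamp7, a fusion protein of the endosome, was lower in both muscles, at 13.2 against 29.9 CPM in EOM (adjusted p = 0.0013) and 13.0 against 23.2 in TA (adjusted p = 0.00164). Ap3m1, a subunit of the AP-3 coat, was also lower in both, by -0.45 and -0.48 on the log2 scale. Dtnbp1, of the BLOC-1 complex, was higher in EOM (68.0 against 49.2 CPM, adjusted p = 0.00108), and Vps41 was lower in TA (-0.45, adjusted p = 0.000146). Of these 27 genes 1 was higher and 2 were lower in the test between muscles (13% of all genes called). Rab32, a GTPase that directs enzymes to the melanosome, had a difference in response of -1.63 ± 0.33 (adjusted p = 0.00434) and Lyst one of -0.79 ± 0.19 (adjusted p = 0.0119), and Rabggta, a subunit of the enzyme that adds lipid anchors to Rab proteins, was at 0.53 ± 0.14 (adjusted p = 0.018; not called in the libraries with matching labels).

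Of the proteins that work directly with Rab27a, 2 of 19 tested were higher and 5 lower in EOM (38.9% of all genes called), with a median of 0.00 against 0.01 over all genes. With matching labels only, 1 was higher and 5 lower. Chm and Chml, the escort proteins that present Rab proteins for lipid anchoring, were both lower while Rab27a was higher: Chml was at 4.80 CPM in albino and 12.1 in C57BL/6 EOM (-1.34 ± 0.15, adjusted p = 0.000227), and Chm at 23.7 and 44.6 CPM (-0.91 ± 0.15, adjusted p = 0.00108). Myo5a, the myosin motor, was at 25.7 and 40.8 CPM (-0.67 ± 0.14, adjusted p = 0.00452). Melanophilin (Mlph), the link between the GTPase and the motor, was at 5.47 and 5.81 CPM and was not called (adjusted p = 0.893); it is named for its role, after its values were seen. In TA 2 of 15 were higher and 3 lower (33.7% of all genes called), with a median of -0.02 against 0.02, and 2 and 2 in the libraries with matching labels. The effectors Exph5 (5.45 against 2.09 CPM, adjusted p = 4.04e-05) and Sytl2 (4.53 against 2.36 CPM, adjusted p = 0.00621) were higher where Rab27a was lower, and Chm was lower (-0.57, adjusted p = 0.000307). With the marker groups, 1 partner of 19 had a response that differed between muscles, Exph5 (-1.17 ± 0.32, adjusted p = 0.0245), a call lost without C57BL/6 EOM 2 or C57BL/6 TA 1, with adjusted p-values up to 0.0535. In the libraries with matching labels 2 of 20 partners were called, both lower.

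**Figure D4:**
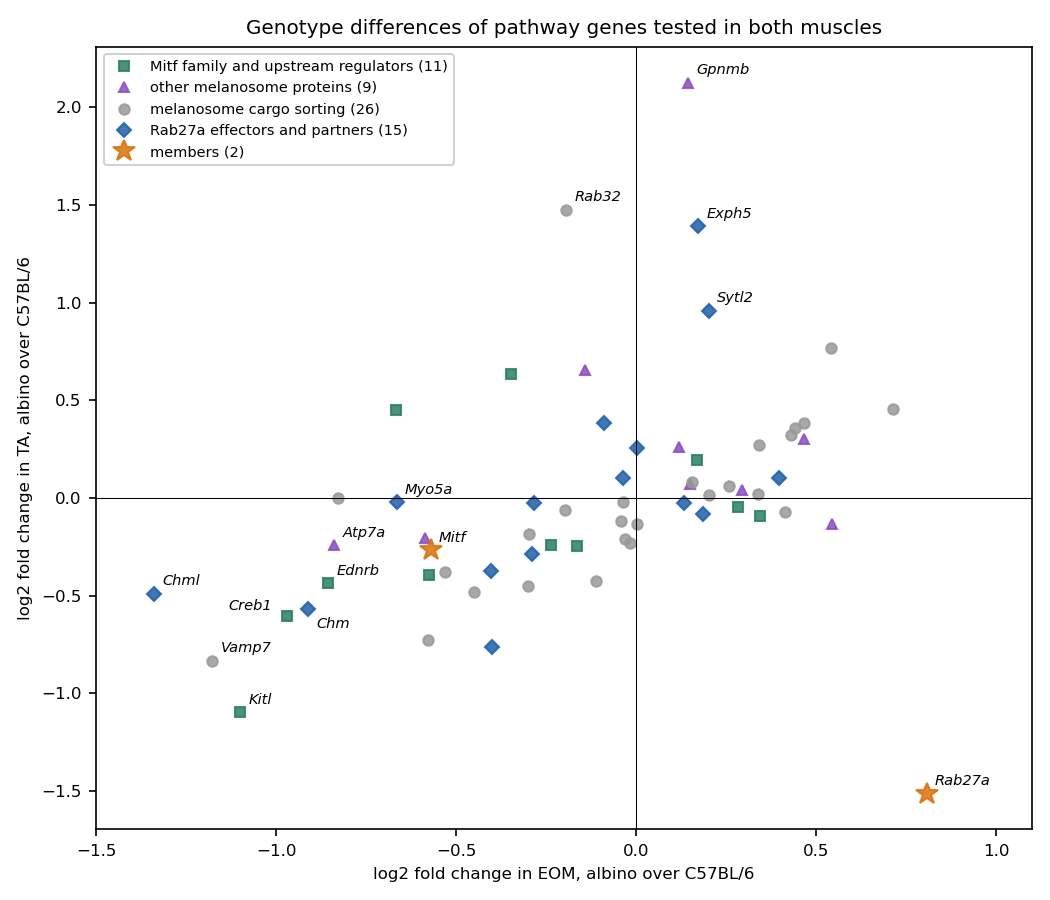
Difference between albino and C57BL/6 libraries in EOM (horizontal axis) and TA (vertical axis), both on the log2 scale, for Mitf, Rab27a and the listed pathway genes tested in both muscles, coloured by list. Rab27a lies at 0.81 and -1.51, higher in EOM and lower in TA, and Kitl at -1.10 on both axes.

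In the brain none of these genes was called between the strains by edgeR. At an unadjusted p under 0.05 there were 3 of 13 regulators, 1 of 11 other melanosome proteins, 6 of 27 sorting genes and 5 of 19 Rab27a partners in CN3, and 2 of 13, 1 of 11, 2 of 26 and 1 of 18 in CN6. The share of all genes under that cut is not given here, so these counts are not read as results. Between the muscles of C57BL/6 mice, where 41.3% of all genes were called higher in EOM and 32.8% lower, 9 of 14 genes of the Mitf family and its regulators were higher and 2 lower, with Kit, the receptor of melanoblasts and mast cells, at 15.4 against 1.30 CPM and Sox10, of neural crest cells and Schwann cells, at 14.4 against 1.46. Of 19 Rab27a partners 15 were higher and 4 lower, with Rph3a (3.88, adjusted p = 0.000259), Sytl1 (3.08, adjusted p = 8.04e-07) and Mlph (2.67, adjusted p = 3.11e-06) among them. Of the 27 sorting genes 4 were higher and 17 lower, and Rab38 and Rab32, the pair known for melanosome sorting, were among the 4 (2.94 and 2.46 on the log2 scale). Between CN3 and CN6, where 21.5% of all genes were called, 3 of 14 genes of the Mitf family and its regulators were higher and 1 lower, 0 and 3 of 12 other melanosome proteins, 2 and 6 of 27 sorting genes and 2 and 4 of 19 Rab27a partners. Lef1 was higher (2.01, adjusted p = 0.000307) and Dtnbp1 lower (-0.58, adjusted p = 1.36e-05) in CN3.

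The genes whose levels ran most like Rab27a over the 32 libraries were sought among 14047 genes with a mean of at least 1 CPM. They were Aldh1b1 (Pearson's r = 0.9465), Cidea (0.9435), Foxl2os (0.9424), Idh1 (0.9406) and Cyp2d22 (0.9372) on log2 CPM. These points share tissue and genotype. In EOM Aldh1b1 was at 21.2 CPM in C57BL/6 and 29.9 in albino libraries, and in TA at 0.396 and 0.334. For the 7 melanocyte genes summed, over the 8 EOM libraries and 14116 genes with a mean of at least 0.5 CPM, the nearest were Gsn (0.9719), Vnn3 (0.9423), Soga3 (0.9367), Tfip11 (0.9194) and Tmem179 (0.9062). With 8 points that share 1 dissection, these are descriptions and carry no p.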

How the data were processed

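Bulk RNA was sequenced from 32 mouse samples, and the authors deposited 1 table of raw read counts per gene symbol. Per the submitters' processing notes, the tools were Trimmomatic 0.33, FastQC, HISAT2 2.1.0, featureCounts and edgeR with build mm10; the annotation and strand setting are not given in the sources used here. Per the labels, RNA came from either a fibrous or a lipid tissue kit. Library totals ran from 18544334 to 44254021 counts. Of counts of 1 to 20, 75.4 to 84.7% were even, against 48.6 to 51.5% of counts over 100. That is as when both mates of a pair are counted, so counting intervals are too narrow and limits for undetected genes too low. Among the symbols, 27 look like dates and hold at most 0.308% of a library.

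The 10 genes, the lists, the marker-based albino groups and the tests were chosen with earlier results of these data known. Named from the lists were up to 3 called genes per genotype comparison with the smallest adjusted p, up to 3 per C57BL/6 tissue comparison with the largest change, the marker genes beside a result, and the 5 genes most like a target on log2 CPM (prior count 2; predicted genes left out). CPM is counts per 1000000 of the deposited library total. Genotype was tested within each tissue, and tissues within C57BL/6, with edgeR 4.0.16 in R 4.3.3 (quasi-likelihood F test, filterByExpr, TMM), Benjamini-Hochberg adjusted over all genes tested, called at 0.05. SE is the log2 difference divided by the root of F, and intervals are ±1.96 SE. Limits for undetected genes are 3 counts, and ratio intervals are 95% exact binomial intervals. Alternatives were DESeq2 1.42.0, limma 3.58.1 (voom), other scalings and filters, all libraries in 1 fit, halved counts, a block for replicate number, and each library left out in turn. The fit was tested on simulated counts. Gene overlaps come from GENCODE M21, and promoters from RefSeq.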

Additional observations from a re-analysis of the deposited data

Results flagged for a closer look

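Of 68 groups of 4 libraries in which 1 of the 10 genes was counted, 13 had a library set apart from the other 3. The measure was Dixon's 95% critical value, whose rate of about 1 in 20 holds for continuous values. A library with any count passes it whenever the other 3 are at 0. The 13 can therefore not be set against that rate. In 9 of these 13 the library set apart held 4 counts or fewer. Tyrp1 was at 0.0452 CPM in C57BL/6 CN3 2 and at 0.0715 in C57BL/6 TA 4, with no count in the other libraries of the group. Dct was at 0.0767 CPM and Pmel at 0.153 in C57BL/6 TA 2, likewise alone. Mlana was at 0.053 CPM in C57BL/6 CN3 3, at 0.0635 in the library labelled albino CN3 2 and at 0.168 in the library labelled albino CN6 4, which is grouped as TA. Gpr143 was at 0.0645 CPM in the library labelled albino CN3 1. Dct was at 0 CPM in the library labelled albino CN6 3, while the other 3 of the albino TA group lay between 0.0757 and 0.084. Slc45a2 was at 0.654 CPM, 16 counts, in C57BL/6 EOM 1, against 0.261 to 0.324 in the other 3.

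The other 3 were as follows. Oca2 was at 6.83 CPM (193 counts) in the library labelled albino TA 1, against 0.119 to 0.196 in the other 3 of the albino CN6 group. Tyrp1 was at 1.39 CPM (48 counts) in the library labelled albino EOM 2, against 0.129 to 0.318 in the other 3 of the albino CN3 group. Rab27a was at 1.00 CPM (19 counts) in the library labelled albino CN6 3, the lowest of the albino TA group, against 1.89 to 2.06.

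The genotype difference of Rab27a differed between EOM and TA by 2.37 on the log2 scale in a test of that difference.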

How the results depend on the processing

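The largest dependence is on the grouping. With all libraries as labelled, 1 gene was called in EOM (5848 with marker groups), 18 in TA (4361), 0 in CN3 (45), 0 in CN6 (19), 33 for the EOM and TA interaction (1988) and 0 for that of CN3 and CN6 (5), and 0 of the 10 genes were called in EOM, TA or the muscle interaction. As labelled, values changed sign in EOM for Dct (-0.80), Mlana (-1.33), Ednrb (0.24), Atrn (0.86), Cd63 (-0.17), Chml (0.38) and Myo5a (2.56), in TA for Rab27a (0.008), Cd63 (-0.31) and Vps41 (0.36), in CN3 for Pmel (0.54) and Rab27a (1.15) and in CN6 for Pmel (-0.27) and Mitf (0.55). In the libraries with matching labels, 13 genes were called in CN3, 4 in CN6, 1211 and 2 in the 2 interactions, and Mlana in EOM was at -0.27.

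Same-numbered libraries showed little shared deviation. Of 8 pairs with matching labels 1 had a correlation of deviations over 0.1 (-0.139 to 0.245). Of 24 C57BL/6 pairs 1 did (-0.16 to 0.115). Tissues of 1 animal need not deviate together, so this check cannot settle whether replicate numbers pair the samples. With a replicate block on the matching libraries, 2641 genes and 2 of the 10 genes were called in EOM, 5 genes in CN3 and 0 in CN6, Mlana in EOM was at -0.86 and Mitf in CN3 at -0.18. With the block on libraries as labelled, 0 genes were called in EOM, TA, CN3, CN6 and the brain interaction and 11 in the muscle interaction, with 0 of the 10 genes in either muscle or their interaction. Under it Dct (-2.42), Mlana (-2.53), Ednrb (0.06), Atrn (0.51), Cd63 (-0.55) and Myo5a (1.495) changed sign in EOM, Cd63 (-0.48) and Vps41 (0.22) in TA, Pmel (0.32) and Rab27a (0.83) in CN3 and Pmel (-0.81) and Mitf (0.43) in CN6.

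With all 32 libraries in 1 fit, 2 of the 10 genes were called in EOM and 1 in TA. That fit called 1 in CN3, 1 in the brain interaction and 8 between C57BL/6 muscles. Over all genes it called 193 in CN3, 43 in CN6 and 8 in the brain interaction. Its shares over all genes in the muscle comparisons are not given here, so those counts are not read as results. DESeq2 called 599 genes in CN3, 189 in CN6 and 24, with 1 of the 10, in the brain interaction. Voom called 34 genes in CN6 and 1 in the brain interaction and put Rab27a at 0.004 between CN3 and CN6. Without the filter 9 of the 10 were called between C57BL/6 muscles, beside 12587 of 21178 genes. With only the 8 libraries compared, an alternative chosen after seeing the data, 1 was called between CN3 and CN6. With halved counts, also chosen then, 1 was called between muscle and brain. For both of these alternatives the share over all genes is not given here, so the counts are not read as results. Upper quartile scaling left 1 call in TA and moved the split to 3502 higher and 2668 lower in EOM (2669 and 3179 with TMM) and 2658 and 1748 in TA (2154 and 2207). DESeq2 size factors gave 515 higher and 1352 lower in the muscle interaction (846 and 1142).

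Leaving out 1 library at a time gave 1 to 2 of the 10 genes in TA, 6 to 8 between C57BL/6 muscles and 2 to 5 between muscle and brain (5 without C57BL/6 TA 2 or CN6 2). The shares over all genes in those fits are not given here, so these counts are not read as results. Over all genes, leaving out 1 library gave 20 to 210 calls in CN3 (210 without C57BL/6 CN3 1, 20 without the library labelled albino CN3 2) and 6 to 35 in CN6 (35 without the library labelled albino TA 1, 6 without that labelled TA 2). Values near 0 changed sign: Dct (-0.15 to 0.18) and Mlana (-0.15 to 0.49) in EOM, Mitf in CN3 (-0.023 to 0.26) and CN6 (-0.19 to 0.061), Pmel in CN6 (-0.047 to 0.46) and Rab27a between CN3 and CN6 (-0.059 to 0.05). Depth limits Tyr, Oca2, Slc45a2 and Gpr143, which had 0 to 53 counts in each group of 4 libraries other than albino CN6.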
